A study of Mus musculus with 6 samples.

Results

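The 34 genes described here encode the machinery that burns fatty acids in mitochondria and peroxisomes, from activation of the fatty acid to the transcription factors that set the level of the pathway. They were chosen by symbol, and all 34 were found among the 17904 named genes of the deposited table. All 34 reached 1 FPKM (mapped fragments scaled by transcript length and by library size, so that levels can be compared between genes) in at least 1 library, as did 11549 genes in all. Ppargc1b (highest value 1.32 FPKM) and Ehhadh (1.55) lay just inside that limit, and no member lay outside it.

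The samples were mouse bone marrow-derived macrophages, cells grown for 5 days with the growth factor M-CSF from marrow of C57BL/6 animals aged 8 weeks. By genotype they were WT (wild type) or Setd2-KO, lacking a histone methyltransferase gene according to the labels, and they were collected without lipopolysaccharide (LPS, from the outer membrane of bacteria) or with 100 ng/ml of it for 12 or 24 h. Each of the 6 groups was 1 library, which leaves every level without a replicate error and every difference without a replicate check. The labels describe neither the Setd2 allele nor a promoter that would drive its deletion, and whether 2 libraries came from the same animal or culture is not stated.

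Fatty acids enter the pathway as acyl-CoA thioesters, made by long-chain acyl-CoA synthetases. For entry into mitochondria the acyl group is moved to carnitine by Cpt1a, carried across the inner membrane by Slc25a20 and returned to CoA by Cpt2. Each turn of the β-oxidation spiral then runs through a dehydrogenase, a hydratase, a second dehydrogenase and a thiolase, and electrons from the initial step pass through the flavoprotein ETF to the respiratory chain. Peroxisomes run a parallel spiral on very long and branched chains, with an oxidase at the initial step. In macrophages the pathway is known for its link to alternative activation, while LPS is known to turn the cells towards glycolysis.

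Facts of the whole series that bear on these genes are few. Setd2 stood at 7.83, 8.68 and 7.51 FPKM in WT at 0, 12 and 24 h and at 9.96, 9.16 and 5.11 FPKM in the libraries labelled KO. Since the allele is not described, reads outside a deleted stretch would still count, and these values check nothing: every KO direction below rests on the labels. Depth is not recorded in the table. The spacing of low values gave estimates of 21820000 to 22540000 mapped reads per library for an assumed read length of 50. All 9 macrophage markers reached 1 FPKM, and the receptor gene Csf1r lay between 392 and 826 FPKM in every library, but the lysozyme gene Lyz2 was at 5502, 3903 and 9015 FPKM in WT and at 17.7, 36.0 and 54.5 FPKM in KO. Neutrophil markers (8 of 8 at 1 FPKM or more) summed to between 51.5 and 128 FPKM, stromal markers (3 of 6 rows) to between 6.78 and 12.8, endothelial markers (3 of 4) to between 3.49 and 23.2, and B cell and dendritic cell markers (1 of 5 each) to at most 3.52 and 2.73. T cell, NK cell, erythroid, mast cell and adipocyte markers each summed to at most 1.35 FPKM, and their part in the results was not tested. In bulk RNA, fewer expressing cells and less RNA per cell cannot be told apart.

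Differences with LPS were larger than those between genotypes among the fatty acid oxidation genes. Among all measured genes, too, 2-fold differences were more frequent with LPS than between genotypes. In both genotypes the synthetase gene Acsl1 (at 12 and 24 h), the nuclear receptor gene Ppard (at 12 h) and the peroxisomal thiolase gene Acaa1a (at 24 h) were at least 2-fold higher, while Pparg and the 3-hydroxyacyl-CoA dehydrogenase gene Hadh were lower by more than 2-fold at both times. Most enzymes of the mitochondrial spiral had lower values after LPS, by less, and so did most measured genes. On the log2(FPKM + 1) scale, 2.97%, 1.32% and 2.22% of all measured genes were at least 2-fold higher in KO than in WT at 0, 12 and 24 h. The shares lower were 1.26%, 0.736% and 1.94%. Of the 34 genes, 0 reached 2-fold between the WT and KO libraries at any time on that scale. As a plain FPKM ratio Ehhadh did at 24 h (0.492, with a 95% counting interval of 0.267 to 0.871, from about 19 and 38 reads), and Etfb was past 2-fold at 24 h with trimmed-mean scaling.

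Differences are those of log2(FPKM + 1), a scale that understates low genes, and a gene counts as called when its difference reaches 1 (2-fold) in size. After 12 h with LPS, 4 of the 34 members were called higher and 10 lower in WT, where the same rule called 9.64% and 17.4% of all 11549 measured genes. In KO at 12 h, 3 were called higher and 5 lower, against 8.63% and 17.5% of all genes. At 24 h, 2 were called higher and 5 lower in WT, against 7.65% and 13.9%. KO at 24 h also had 2 called higher and 5 lower, against 7.55% and 21.6%. The share of members called lower was thus 29.4% in WT at 12 h, above the background, and 14.7% in the other 3 comparisons, near or below it. Within a genotype both responses are taken from a single 0 h library.

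The median difference of the members was -0.65 and -0.56 in WT at 12 and 24 h, beside -0.28 and -0.25 for all measured genes. In KO the members' medians were -0.53 and -0.36, beside -0.36 and -0.39. Trimmed-mean scaling took the medians of all genes to between -0.03 and -0.02 in these 4 comparisons and the members' medians to -0.36, -0.30, -0.16 and 0.06, so that the last changed sign. Scaling moved the split of calls too. In WT at 24 h both median-of-ratios and trimmed-mean scaling gave 5 members higher and 3 lower. Of all 11549 measured genes, the former called 1076 higher and 1137 lower and the latter 1100 and 1086. In KO, trimmed-mean scaling gave 5 higher and 2 lower at 12 h, beside 1407 and 1112 of all 11547 genes. At 24 h it gave 3 of each, beside 1425 higher and 1435 lower.

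**Figure D1:**
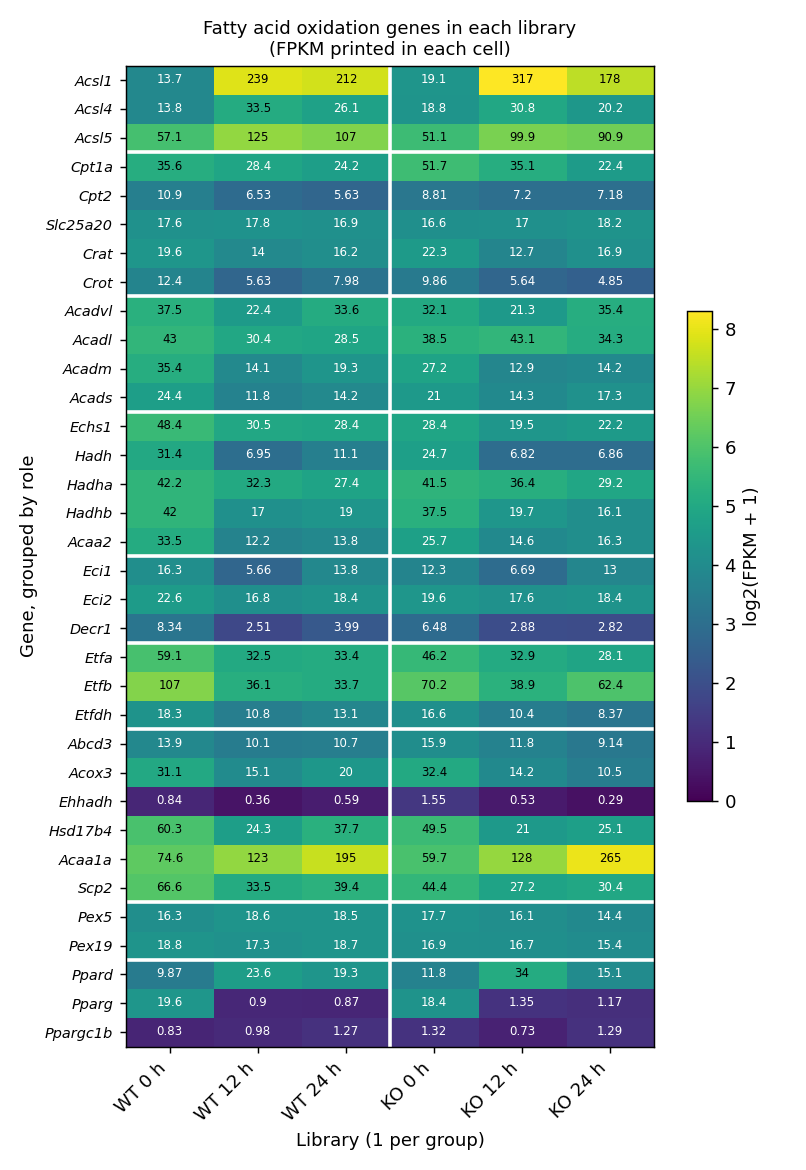
Level of each of the 34 genes (rows, grouped by role) in each of the 6 libraries (columns), with the FPKM printed in each cell and the colour showing log2(FPKM + 1). Acsl1 goes from 13.7 and 19.1 FPKM at 0 h to between 178 and 317 in the 4 libraries with LPS, while Pparg goes from 19.6 and 18.4 to between 0.87 and 1.35.

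With limma, a model with genotype and time as separate terms was fitted to all 6 libraries for every gene with 6 values, where the error is how far the LPS response differed between WT and KO and not the spread between replicates. At 12 h, 23 of the 34 members had a Benjamini-Hochberg adjusted p under 0.05 (5 higher, 18 lower), beside 11.8% and 30.5% of all genes. At 24 h, 16 did (3 higher, 13 lower), beside 9.29% and 25.2%. Acsl1 had a fitted 24 h difference of 3.51 (SE 0.24, limma adjusted p = 0.000121), higher in 2 of 2 genotypes, and Pparg one of -3.31 (SE 0.20, limma adjusted p = 9.3e-05), lower in 2 of 2. Hadh was at -1.56 (SE 0.21, limma adjusted p = 0.00225) and Acaa1a at 1.75 (SE 0.24, limma adjusted p = 0.00214). The fit uses FPKM as deposited, so it carries the shift of all genes given above.

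The promoters of 3 members are printed here, those ranked highest by the smaller of their WT and KO responses at 24 h (Acsl1, Pparg and Hadh). Acaa1a followed Hadh closely in that order (1.37 against 1.42) and came before it by the fitted difference above. Each line holds the 250 bases before an annotated RefSeq start site (build GRCm38.p6), 5′ to 3′ on the strand of the gene, with GC boxes and CCAAT boxes on either strand in capitals. They lie at chr8:46470787-46471036 on the plus strand for Acsl1, chr3:131272102-131272351 on the minus strand for Hadh and chr6:115421816-115422065 on the plus strand for Pparg. Acsl1 has 2 and Pparg 3 such start sites. The Acsl1 window is that of the upstream site and the Pparg window that of the most downstream one. Gene-level values do not tell start sites apart, so which start gave the values of either gene is not known.
Acsl1: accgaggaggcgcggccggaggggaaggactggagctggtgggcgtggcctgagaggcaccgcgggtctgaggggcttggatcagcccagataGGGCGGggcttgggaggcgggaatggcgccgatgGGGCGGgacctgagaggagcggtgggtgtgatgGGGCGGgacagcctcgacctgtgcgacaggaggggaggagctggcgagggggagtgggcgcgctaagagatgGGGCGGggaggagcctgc
Hadh: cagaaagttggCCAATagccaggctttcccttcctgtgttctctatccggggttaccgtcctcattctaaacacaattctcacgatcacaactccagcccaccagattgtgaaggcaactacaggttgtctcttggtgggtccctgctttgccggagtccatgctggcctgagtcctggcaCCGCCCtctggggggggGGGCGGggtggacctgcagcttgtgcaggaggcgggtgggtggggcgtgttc
Pparg: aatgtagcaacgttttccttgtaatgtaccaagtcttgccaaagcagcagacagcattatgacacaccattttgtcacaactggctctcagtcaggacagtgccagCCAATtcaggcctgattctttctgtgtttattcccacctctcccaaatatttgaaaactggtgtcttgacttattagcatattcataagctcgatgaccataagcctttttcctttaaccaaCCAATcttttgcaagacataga

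The Acsl1 sequence has 4 GC boxes and 0 CCAAT boxes, with a GC content of 72.0%. Hadh has 2 GC boxes and 1 CCAAT box at 59.6% GC, and this Pparg start has 0 GC boxes and 2 CCAAT boxes at 40.8% GC. The starts that are not printed differ from these: the other Acsl1 window has 0 GC boxes and 2 CCAAT boxes at 48.4% GC, and the other Pparg windows have 1 and 2 GC boxes at 82.4% and 63.6% GC. Which start is shown therefore sets any contrast between these genes. In the lines printed, no GC box overlaps a CCAAT box. RefSeq windows of 300 bases (250 before to 50 after a start site) were matched for 28 of the 34 members, with 34 windows. Of these windows 73.5% hold a GC box (GGGCGG) on either strand, beside 62.4% of the 11555 windows of measured genes and 35.7% of all 32851 windows. A CCAAT box (CCAAT) was in 47.1%, beside 37.9% for measured genes. The NRF1 element (GCGCA and GCGC with 1 base between them), which is known from genes of mitochondrial proteins, was in 3 of the 34 member windows (8.82%, beside 10.4%), those of Etfb, Etfdh and Abcd3. The PPAR:RXR direct repeat (2 copies of AGGNCA with 1 base between them) and the estrogen-related receptor element (TCAAGGTCA) were in 0 of the 34, beside 0.242% and 0.277% of the windows of measured genes. A match is a description of letters and does not show a binding site.

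Among the steps as grouped here, fatty acid activation had the largest gain in summed level, and most of it came from Acsl1. The related synthetase gene Acsl3, listed here with fatty acid synthesis and at most at 5.29 FPKM, went the other way. Its log2 responses at 12 and 24 h were -1.21 and -0.95 in WT and -1.29 and -1.49 in KO. Acsl1 (gene ID 14081, GRCm38 chromosome 8, 46471037 to 46536051) encodes the main long-chain acyl-CoA synthetase of oxidative tissues and is known as an LPS-inducible gene in macrophages. It was at 13.7 FPKM in WT at 0 h, 239 at 12 h and 212 at 24 h. In KO it was at 19.1, 317 and 178 FPKM. Both 0 h libraries were low and all 4 LPS libraries high, with no overlap. On the log2 scale the responses were 4.03 and 3.85 in WT and 3.99 and 3.16 in KO. Those at 24 h correspond to FPKM ratios of 15.4 and 9.36.

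Acsl4, which prefers arachidonic acid, was at 13.8, 33.5 and 26.1 FPKM in WT and 18.8, 30.8 and 20.2 in KO. Its response was called in WT at 12 h (1.22) and was 0.68 in KO. By 24 h it stood at 0.88 in WT and 0.10 in KO. Acsl5, a synthetase of the outer mitochondrial membrane and endoplasmic reticulum, was at 57.1, 125 and 107 FPKM in WT and 51.1, 99.9 and 90.9 in KO. It was called in WT at 12 h (1.11) and was 0.95 in KO. With a trend over transcript length removed (described with the genotype results), the 12 h calls of Acsl4 (0.89) and Acsl5 (0.86) in WT were lost. Acsl1 made up 16.2% of the summed FPKM of Acsl1, Acsl4 and Acsl5 in WT at 0 h and 60.2% and 61.4% at 12 and 24 h. In KO its share was 21.4%, 70.8% and 61.6%.

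The carnitine shuttle had 2 calls among its 5 genes over the 4 LPS comparisons. Both were lower, 1 in WT at 12 h (beside 17.4% of all genes) and 1 in KO at 24 h (beside 21.6%). Cpt1a, the malonyl-CoA-sensitive entry enzyme of mitochondrial oxidation, was at 35.6, 28.4 and 24.2 FPKM in WT and 51.7, 35.1 and 22.4 in KO. The KO 0 h library was the highest and the 24 h libraries were the lowest in each genotype. The KO response at 24 h was called (-1.17), and it fell short of the rule at -0.83 with the length trend removed, -0.92 with median-of-ratios scaling and -0.74 with trimmed-mean scaling. The WT response was -0.54.

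Slc25a20, the carnitine-acylcarnitine carrier, had the flattest profile of the shuttle, with values from 16.6 to 18.2 FPKM across all 6 libraries. Cpt2, the inner membrane transferase, was at 10.9, 6.53 and 5.63 FPKM in WT and 8.81, 7.20 and 7.18 in KO. Its 0 h value was the highest in each genotype. Crot, which makes carnitine esters in peroxisomes for export, was at 12.4, 5.63 and 7.98 FPKM in WT and 9.86, 5.64 and 4.85 in KO. It was called lower in WT at 12 h (-1.02), a call lost with either scaling (-0.77 and -0.74), and was at -0.71 in KO. Crat, which buffers acetyl-CoA as acetylcarnitine, went from 19.6 FPKM to 14.0 and 16.2 in WT and from 22.3 to 12.7 and 16.9 in KO, with 0 calls.

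Together, 15 genes encode the dehydrogenases, later spiral enzymes, unsaturated-bond enzymes and electron transfer proteins of the mitochondrion. Every one of the 15 had a lower FPKM in WT at 12 and 24 h than at 0 h, and 14 and 13 of them did in KO. Most measured genes did as well, 65.0% and 67.1% of them in WT and 70.2% and 68.5% in KO. These directions, and the sums that follow, are of FPKM as deposited. Scaling the libraries or removing the length trend reversed the direction of some of the 34 members. At least 1 such setting did so for 1 and 4 members in WT at 12 and 24 h, and for 5 and 12 in KO. The summed level of the 15 was 570 FPKM in WT at 0 h, 282 at 12 h and 312 at 24 h. In KO it was 448, 298 and 325 FPKM. Across all 34 members the sums were 1063, 1020 and 1089 FPKM in WT and 916, 1095 and 1072 in KO. Over the same libraries Acsl1, Acsl4 and Acsl5 summed to 84.6, 398 and 345 FPKM in WT and 89.0, 448 and 289 in KO.

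The acyl-CoA dehydrogenases catalyse the initial step, each on its own range of chain lengths. Acadm, for medium chains, was at 35.4, 14.1 and 19.3 FPKM in WT and 27.2, 12.9 and 14.2 in KO. Both 0 h libraries were above all 4 LPS libraries. It was called lower at 12 h in both genotypes (-1.27 in WT, -1.02 in KO), and trimmed-mean scaling ended both calls (-0.98 and -0.62). The KO call was also lost with median-of-ratios scaling (-0.72), a pseudocount of 5 (-0.84) and the length trend removed (-0.98).

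Acads, for short chains, was at 24.4, 11.8 and 14.2 FPKM in WT and 21.0, 14.3 and 17.3 in KO, and stopped just short of a call in WT at 12 h (-0.99). Acadvl, for very long chains, was at 37.5, 22.4 and 33.6 FPKM in WT and 32.1, 21.3 and 35.4 in KO. It was low at 12 h and close to its 0 h level at 24 h in both genotypes. Acadl, for long chains, differed between genotypes in its 12 h response, with 43.0, 30.4 and 28.5 FPKM in WT and 38.5, 43.1 and 34.3 in KO. That difference of responses was 0.65, short of the 2-fold rule.

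Hadh (gene ID 15107, chromosome 3, 131233419 to 131272101) encodes the dehydrogenase of the second oxidation step for medium and short chains. It was at 31.4, 6.95 and 11.1 FPKM in WT and at 24.7, 6.82 and 6.86 in KO. The 0 h libraries were at least 24.7 FPKM and the LPS libraries at most 11.1. It was called lower in all 4 LPS comparisons, with -2.03 and -1.42 in WT and -1.71 and -1.71 in KO, and kept those calls under each pseudocount, scaling and the length correction. From 12 to 24 h the WT level increased 1.60-fold while the KO level stayed at 1.01 times its 12 h value.

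Hadha and Hadhb encode the α and β subunits of the mitochondrial trifunctional protein, which runs the last 3 steps on long chains. The genes lie head to head on chromosome 5 (30119423 to 30154980 and 30155253 to 30184593) and their annotated start sites are 273 bases apart. At 0 h they had nearly equal levels in WT, 42.2 FPKM for Hadha and 42.0 for Hadhb. In WT Hadha then stood at 32.3 and 27.4 FPKM, and Hadhb at 17.0 and 19.0. In KO Hadha was at 41.5, 36.4 and 29.2 FPKM and Hadhb at 37.5, 19.7 and 16.1.

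The Hadhb to Hadha ratio was therefore 0.995, 0.527 and 0.694 in WT and 0.904, 0.543 and 0.550 in KO, lower in all 4 LPS libraries than in either 0 h library. Hadhb was called lower in 3 of the 4 LPS comparisons (WT at 12 and 24 h, KO at 24 h, at -1.25, -1.11 and -1.17), and Hadha in 0 of 4 (-0.61 at most in size). All 3 Hadhb calls were lost with either scaling. The transcript of Hadha is 4017 nt long and that of Hadhb 2042 nt. With the length trend removed, the WT 12 h responses were -0.61 for Hadha and -1.14 for Hadhb, closer together than the uncorrected ones (-0.38 and -1.25). In the same order they were -0.70 and -1.045 in WT at 24 h. The KO responses were -0.23 and -0.86 at 12 h and -0.19 and -1.26 at 24 h. This pair was singled out after its values were seen.

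**Figure D2:**
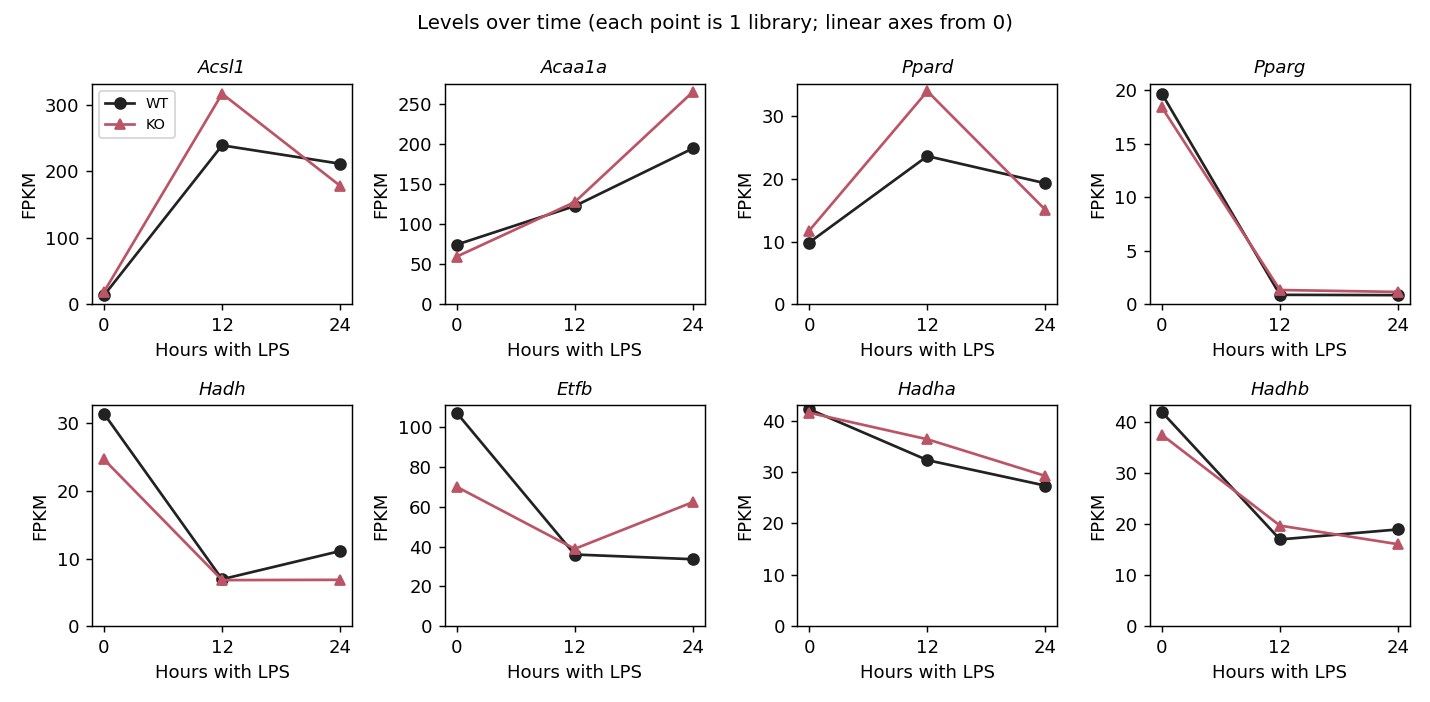
Level (FPKM, linear axis from 0) of 8 members at 0, 12 and 24 h with LPS, each point being 1 library, black circles for WT and red triangles for KO. Hadha and Hadhb lie between 37.5 and 42.2 FPKM at 0 h and part after LPS, and Etfb ends at 33.7 FPKM in WT and 62.4 in KO.

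Acaa2 and Echs1 complete the spiral. Acaa2, the mitochondrial 3-ketoacyl-CoA thiolase, was at 33.5, 12.2 and 13.8 FPKM in WT and 25.7, 14.6 and 16.3 in KO. Both 0 h values were above all LPS values. It was called lower in WT at 12 h (-1.39) and 24 h (-1.22, lost with either scaling at -0.99 and -0.96), and the KO values were -0.78 and -0.63. The difference between the genotypes' responses was 0.61 and 0.59, short of the rule. Echs1, the short-chain enoyl-CoA hydratase, was at 48.4, 30.5 and 28.4 FPKM in WT and 28.4, 19.5 and 22.2 in KO, and had 0 calls.

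Enzymes for unsaturated chains move or reduce double bonds that the spiral cannot pass. Eci1, a mitochondrial enoyl-CoA isomerase, was low at 12 h alone, with 16.3, 5.66 and 13.8 FPKM in WT and 12.3, 6.69 and 13.0 in KO. The WT value at 12 h was called lower than at 0 h (-1.37) and lower than at 24 h, when it was higher by 1.15. From 12 to 24 h in WT it was the 1 member called higher and 0 were called lower, beside 1.83% and 3.8% of all measured genes. Without the length trend the 12 h call was lost at -0.96 and the recovery at 0.94, and a pseudocount of 5 ended both as well.

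Decr1, the 2,4-dienoyl-CoA reductase, was at 8.34, 2.51 and 3.99 FPKM in WT and 6.48, 2.88 and 2.82 in KO. It was called in WT at 12 h (-1.41), a call lost with a pseudocount of 5, and the KO values of -0.95 and -0.97 were close to the rule. Eci2, an isomerase found in both organelles, ranged only from 16.8 to 22.6 FPKM over the 6 libraries.

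Electrons leave the spiral through ETF, a heterodimer of Etfa and Etfb, and through its dehydrogenase Etfdh. Etfb (gene ID 110826, chromosome 7, 43444072 to 43457800) was at 107, 36.1 and 33.7 FPKM in WT and 70.2, 38.9 and 62.4 in KO. It was called lower in WT at 12 h (-1.55) and 24 h (-1.64), whereas KO was at -0.83 and -0.17. The difference of the 24 h responses, 1.48, was the 1 such difference among the 34 members to reach 2-fold, and 0 reached it in the other direction, beside 4.04% and 8.63% of all genes. At 12 h 0 members did in either direction, beside 1.65% higher and 3.14% lower. Etfb has the shortest transcript of the members, 893 nt, and without the length trend its 24 h difference of responses was 0.75 and its WT 12 h response -0.97, both short of a call.

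Etfa was at 59.1, 32.5 and 33.4 FPKM in WT and 46.2, 32.9 and 28.1 in KO, with 0 calls. The Etfb to Etfa ratio was 1.82, 1.11 and 1.01 in WT and 1.52, 1.18 and 2.22 in KO, so the KO 24 h library had the highest ratio of the 6. Etfdh was at 18.3, 10.8 and 13.1 FPKM in WT and 16.6, 10.4 and 8.37 in KO. It was lowest in the library where Etfb relative to Etfa was highest.

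Peroxisomal enzymes included 1 gene with higher and several with lower values. Acaa1a, the peroxisomal 3-ketoacyl-CoA thiolase (gene ID 113868, chromosome 9, 119341028 to 119350296) was at 74.6, 123 and 195 FPKM in WT and 59.7, 128 and 265 in KO. Every later time was above the one before it in both genotypes. The responses were 0.71 and 1.37 in WT and 1.09 and 2.13 in KO, the last being an FPKM ratio of 4.44. From 12 to 24 h in KO it was called higher (1.05, the 1 member so called, beside 4.78% of all genes). The 24 h calls of both genotypes held under each pseudocount, scaling and the length correction. Acaa1b, a close paralog whose reads could be shared, was listed at 0.08 FPKM or less in all libraries, so how reads were split between the copies is uncertain.

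Hsd17b4, the bifunctional enzyme that follows the oxidase on branched and very long chains, was at 60.3, 24.3 and 37.7 FPKM in WT and 49.5, 21.0 and 25.1 in KO. It was called lower at 12 h in both genotypes (-1.28 and -1.20), and trimmed-mean scaling ended both calls (-0.98 and -0.80). Median-of-ratios scaling ended the KO call only. Acox3, an oxidase for branched chains, was at 31.1, 15.1 and 20.0 FPKM in WT and 32.4, 14.2 and 10.5 in KO. KO was called lower at 12 h (-1.13, or -0.84 and -0.74 with the scalings) and 24 h (-1.54), and WT was at -0.99 and -0.61. Both genotypes started from nearly the same level and were furthest apart at 24 h.

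Scp2, whose gene encodes a branched-chain thiolase and a sterol carrier protein, was at 66.6, 33.5 and 39.4 FPKM in WT and 44.4, 27.2 and 30.4 in KO. Abcd3, a transporter of acyl groups into peroxisomes, had its 0 h libraries highest, with 13.9, 10.1 and 10.7 FPKM in WT and 15.9, 11.8 and 9.14 in KO. Neither was called. Ehhadh, the other bifunctional enzyme, was near the detection limit, at 0.84, 0.36 and 0.59 FPKM in WT and 1.55, 0.53 and 0.29 in KO, or about 19 to 99 reads. Its KO ratio at 24 h against 0 h was 0.187 with a 95% interval of 0.107 to 0.306, which covers counting error only. On the log2(FPKM + 1) scale that difference was -0.98, short of a call. Ehhadh reached 1 FPKM only in the KO 0 h library. The limit for measured genes thus favoured a fall from that library, and the ratio is no support for one.

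The import factors stayed within a narrow range. Pex5, the receptor for the C-terminal peroxisomal signal, lay between 14.4 and 18.6 FPKM, and Pex19, the chaperone of peroxisomal membrane proteins, between 15.4 and 18.8 FPKM. In the LPS comparisons the largest difference of either gene was -0.27.

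The regulators moved in opposite directions. Pparg (gene ID 19016, chromosome 6, 115360879 to 115490404), a lipid-activated nuclear receptor that drives lipid uptake and storage genes, was at 19.6 FPKM in WT at 0 h and at 0.90 and 0.87 with LPS. In KO it was at 18.4 FPKM and then at 1.35 and 1.17. The LPS libraries held about 37 to 57 reads each and the 0 h libraries 822 and 767. The WT ratio at 24 h was 0.0443 with a 95% counting interval of 0.0312 to 0.0621, and the KO ratio was 0.0637 with one of 0.0465 to 0.0841. Pparg was called lower in all 4 LPS comparisons (-3.44 and -3.46 in WT, -3.04 and -3.16 in KO), and pseudocounts of 0.1 and 5 moved the WT 24 h value to -4.35 and -2.07.

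Ppard, the related receptor that drives fatty acid oxidation genes in muscle and other tissues, was at 9.87, 23.6 and 19.3 FPKM in WT and 11.8, 34.0 and 15.1 in KO. It was called higher at 12 h in both genotypes (1.18 and 1.45) and was at 0.90 and 0.33 at 24 h. A pseudocount of 5 ended the WT call at 12 h. From 12 to 24 h the KO value was called lower (-1.12, the 1 member so called, beside 7.67% of all genes), and WT was at -0.28. The KO call was lost at -0.92 with the length trend removed, and it was also lost with a pseudocount of 5. The Pparg to Ppard ratio was 1.99 in WT at 0 h and 0.0381 at 12 h, and in KO 1.56 and 0.0397.

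Ppargc1b, a coactivator of mitochondrial genes, was low throughout, from 0.73 to 1.32 FPKM (about 58 to 105 reads). The related genes Ppara and Ppargc1a were listed at 0.01 and 0.08 FPKM or less in every library.

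**Figure D3:**
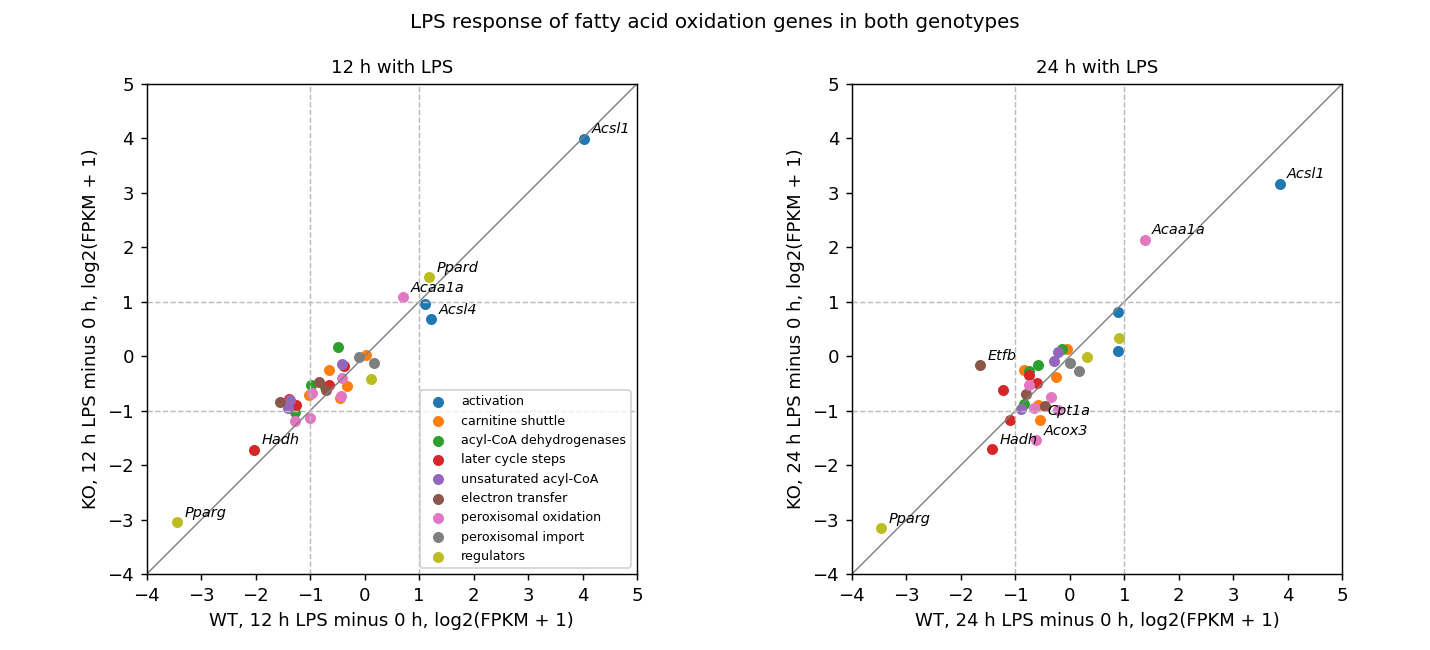
LPS response of the 34 genes in WT (horizontal axis) and KO (vertical axis) as differences of log2(FPKM + 1) from 0 h, at 12 h (left) and 24 h (right). Each point is a gene coloured by role, dashed lines mark 2-fold and the grey line marks equal responses. Acsl1 and Pparg lie far from the centre near the line, and at 24 h Etfb (-1.64 in WT, -0.17 in KO) lies furthest from it.

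Both genotypes shared few calls. At 12 h, 6 members were called with the same sign in WT and KO, 2 higher (Acsl1, Ppard) and 4 lower (Acadm, Hadh, Hsd17b4, Pparg). Of all genes 6.89% were called higher and 11.4% lower in both. At 24 h there were 5, with Acsl1 and Acaa1a higher and Hadh, Hadhb and Pparg lower, beside 5.22% and 9.73%. So 17.6% of members were called in both genotypes at 12 h and 14.7% at 24 h, close to the sums of these background shares.

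Between genotypes, 0 of 34 members were called at 0, 12 or 24 h. In all measured genes the rule called 2.97% higher and 1.26% lower at 0 h, 1.32% and 0.736% at 12 h, and 2.22% and 1.94% at 24 h in the libraries labelled KO. Consequently 0 were called with one sign at all 3 times, beside 0.139% higher and 0.026% lower. The members' medians were -0.16, 0.04 and -0.23 at 0, 12 and 24 h, beside 0.02, -0.06 and -0.11 for all genes, and removing the length trend changed them to -0.10, 0.08 and -0.13. The limma fit over the 3 times called 0 of 34 members (lowest adjusted p = 0.375), with 2 at an unadjusted p under 0.05, and called 0.0173% of all genes, all of them lower.

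The genotype differences at 0 and 24 h moved with transcript length. Over the 5569 to 5571 genes averaging 10 FPKM or more, the Spearman rho between the 0 h difference (KO minus WT) and transcript length was 0.61, and across the 34 members it was 0.74. At 12 h these were 0.16 and -0.17, and at 24 h -0.41 and -0.36. The LPS responses gave 0.34 over all such genes and 0.51 over the members in WT at 12 h, 0.18 and 0.45 in WT at 24 h, 0.09 and 0.23 in KO at 12 h, and -0.36 and -0.04 in KO at 24 h. Genes of a library are not independent, and each value describes 1 pair of libraries. Among the longer transcripts Cpt1a (4317 nt) was at 0.52 and Acsl1 (3663 nt) at 0.45 in KO against WT at 0 h, and the shortest, Etfb, was at -0.61. Other long transcripts did not follow the trend, with Acsl5 (4243 nt) at -0.16, Hadha (4017 nt) at -0.02 and Acox3 (3976 nt) at 0.05. Without the trend Cpt1a was at 0.29, Acsl1 at 0.28 and Etfb at -0.12.

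Echs1 had the largest genotype difference at 0 h and 12 h, at -0.75 and -0.62 (FPKM ratios of 0.59 and 0.64), and was at -0.34 at 24 h. Without the length trend it was at -0.53, -0.59 and -0.47. Scp2 was also lower in KO at each time (-0.57, -0.29 and -0.37). In limma's fit over the 3 times Echs1 had an adjusted p of 0.375 and Scp2 of 0.509, with both lower in 3 of 3 libraries. At 24 h the values furthest from 0 were those of Acox3 (-0.87) and Etfb (0.87), which was called higher (past 2-fold) only under trimmed-mean scaling. Hadh (-0.62), Crot (-0.62) and Etfdh (-0.59) followed on the lower side.

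**Figure D4:**
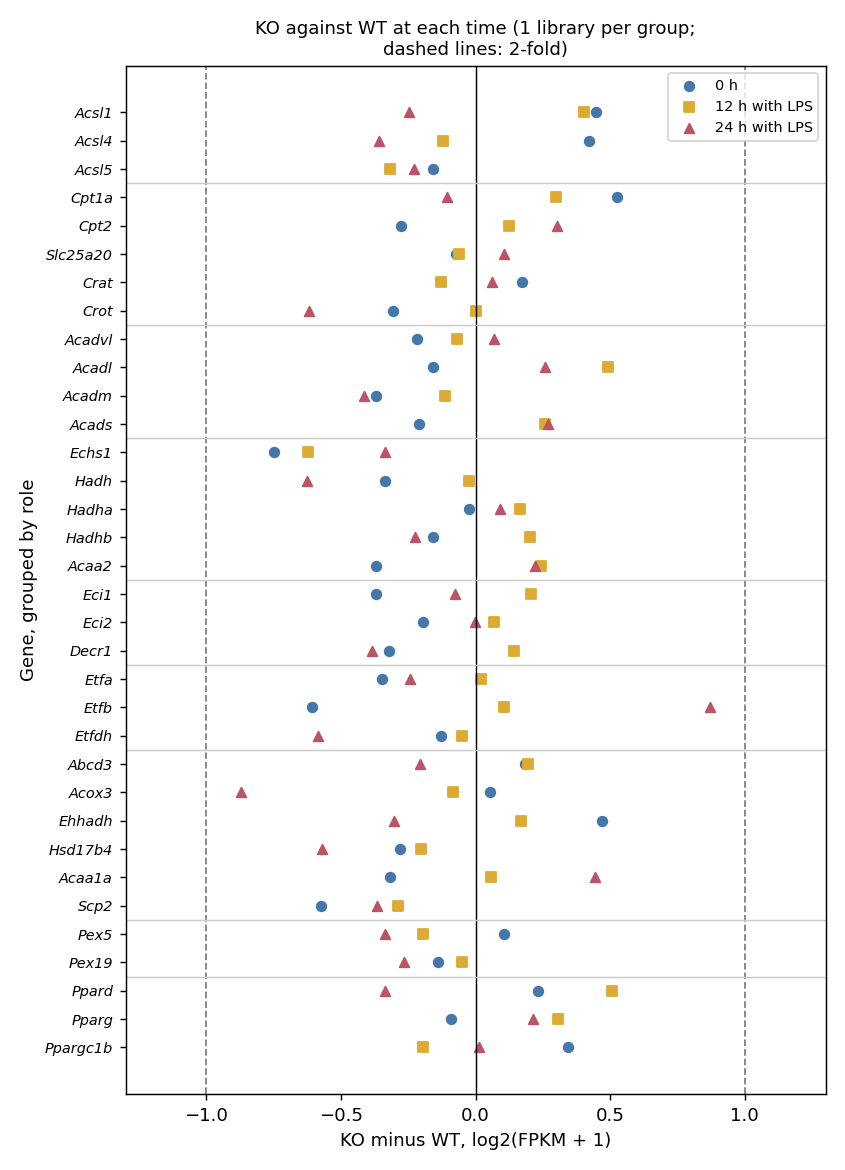
Difference between the KO and WT libraries (log2(FPKM + 1), horizontal axis) for each of the 34 genes at 0 h (blue circles), 12 h (yellow squares) and 24 h (red triangles), with dashed lines at 2-fold. No point reaches the dashed lines, and Etfb (0.87) and Acox3 (-0.87) at 24 h come closest.

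Genes of the same processes outside the 34 were called lower about as often as all genes in 3 of the 4 LPS comparisons. Of 83 other genes of mitochondrial oxidation, peroxisomes and their regulators, 70 were measured, and 0 were called higher and 18 lower in WT at 12 h (25.7% lower, beside 17.4% of all genes). In KO at 12 h the counts were 0 and 12 (17.1% lower, beside 17.5%). At 24 h they were 1 and 7 of 70 in WT (beside 13.9% of all genes lower), and 2 and 16 in KO (22.9% lower, beside 21.6%). Pccb, a subunit of propionyl-CoA carboxylase, which handles the end of odd chains, went from 22.9 FPKM to 4.17 and 5.82 in WT and from 16.0 to 3.26 and 3.76 in KO. Oxct1, which starts the use of ketone bodies, went from 75.0 to 29.9 and 18.6 FPKM in WT and from 63.4 to 28.3 and 15.3 in KO. Acot2, a mitochondrial acyl-CoA thioesterase, was at 7.50, 1.07 and 1.59 FPKM in WT and 7.17, 1.14 and 1.35 in KO. Each of these 3 was called lower in all 4 LPS comparisons.

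Between genotypes, 1 of the 70 was called at any time, the corepressor gene Nrip1 at 0 h (0.72 FPKM in WT, 2.85 in KO, a difference of 1.16). Of 15 listed targets of PPAR receptors, 9 were measured, and 8 of them entered comparisons with KO at 0 h, where Cd36 has no number. With LPS 4 of 9 were called lower in WT at 12 h and 6 of 9 at 24 h, and 3 and 4 of 8 in KO, beside 17.4%, 13.9%, 17.5% and 21.6% of all genes. Angptl4, a lipase inhibitor, went from 5.58 FPKM in WT and 5.00 in KO to 0.48 or less in all LPS libraries. Hilpda, a droplet protein, was called higher in all 4, with 6.21, 38.4 and 14.9 FPKM in WT and 5.20, 42.5 and 41.3 in KO.

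Between genotypes 3 of these 9 targets were called higher and 1 lower in KO at 24 h, beside 2.22% and 1.94% of all genes. The lipoprotein lipase gene Lpl was at 524, 124 and 49.9 FPKM in WT and 622, 278 and 198 in KO, with a difference of 1.97 at 24 h and 1.16 at 12 h, the 1 call at that time. Also called higher at 24 h were Plin2, which coats lipid droplets (1.36), and Hilpda (1.41). Fabp4, a fatty acid binding protein gene, was lower in KO, with 86.2, 37.3 and 30.9 FPKM in WT and 19.1, 20.0 and 9.64 in KO. It was called at 0 h (-2.12, the 1 call at that time) and at 24 h (-1.58).

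Fatty acid synthesis, the opposite pathway, and the TCA cycle, which takes up the acetyl-CoA made by oxidation, were set beside the 34 genes. In KO against WT 0 of 17 measured synthesis genes were called at 0 h (median 0.02) and 1 was called lower at 12 h (median -0.28). At 24 h 5 were called lower and 0 higher (median -0.73), where 1.94% of all genes were lower. Of the oxidation genes 0 of 34 were called (median -0.23), and of the TCA cycle list 1 of 22 was (median -0.21). That call was Idh1 (-1.17), whose enzyme lies in the cytosol and peroxisomes. The list also holds other genes whose enzymes are not steps of the mitochondrial cycle, such as Mdh1 and Acod1. The contrast between lists was not tested. These values keep the trend over transcript length (Spearman rho of -0.41 at 24 h), and values without it were given only for the oxidation genes. After LPS the medians of synthesis were -0.72 and -0.51 in WT and -0.99 and -1.37 in KO. Those of the TCA cycle list were -0.62 and -0.33 in WT and -0.54 and -0.47 in KO.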

How the data were processed

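Total RNA was sequenced on the BGISEQ-500 platform, per the labels' protocols. FPKM values with 2 decimals were deposited, per the file headers. The submitters' processing notes name Bowtie2, RSEM and GRCm38, without versions. Of 17905 rows, 1 names no gene and was left out, and 2 cells without a number were read as missing. The members, lists and tests were chosen with earlier results of these data known. All members may be named, as may called genes and the 4 largest differences of any other list.

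Coordinates and promoters came from RefSeq (GRCm38.p6) and lengths from GENCODE M21 transcripts, matched by the table's RefSeq transcript accessions where possible (99.1% of measured genes). The length trend was a lowess curve over log length (statsmodels 0.14.6, span 0.3), subtracted from each library. Scaling factors were computed on FPKM. The model of genotype and time used limma 3.58.1 with an intensity trend and robust moderation. On simulated 24 h responses it called 200 of 200 changed and 27 of 10582 unchanged genes, so that 27 of its 227 calls were false. The simulated libraries had the same mean levels apart from the planted changes. They held no length trend, no shift of all genes and no genotype difference in response, so these rates need not hold for the calls above. Read numbers are estimates that assume the read length given above, and intervals cover counting error only.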

Additional observations from a re-analysis of the deposited data

How the results depend on the processing

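Acsl1, Hadh and Pparg kept their calls in all 4 LPS comparisons when the pseudocount was 0.1 or 5, when libraries were scaled by trimmed means or by median ratios, and when the length trend was removed. Of the 14 WT calls at 12 h, 4 were kept under these 5 settings, as were 5 of 7 in WT at 24 h, 5 of 8 in KO at 12 h and 5 of 7 in KO at 24 h. The calls from 12 to 24 h and the Etfb difference of responses were each lost under at least 1. With a 1.5-fold rule, members called lower in KO against WT numbered 2, 1 and 4 at 0, 12 and 24 h. The shares of all genes called lower were 7.8%, 3.77% and 10.9%. At 24 h 1 member was higher, beside 6.06% of all genes. That rule called 18 lower in WT at 12 h and 5 higher and 15 lower at 24 h. In KO it called 5 higher and 15 lower at 12 h and 14 lower at 24 h. Of all genes it called 34.2%, 28.3%, 36.3% and 40.1% lower in these 4 comparisons. The shares higher were 12.6% in WT at 24 h and 13.2% in KO at 12 h. The genotypes shared 18 and 12 member calls at 12 and 24 h, for which no share of all genes was computed at 1.5-fold. Trimmed-mean scaling called 1 higher in KO at 24 h against WT (Etfb), where it called 326 of all 11549 measured genes higher. In WT it called 6 lower at 12 h (1284 of all 11549) and 5 higher and 3 lower at 24 h (1100 and 1086). In KO it called 5 higher and 2 lower at 12 h (1407 and 1112 of all 11547) and 3 lower at 24 h (1435). Median-of-ratios scaling called 5 higher and 3 lower in WT at 24 h, beside 1076 and 1137 of all 11549 genes. In KO it called 2 lower at 12 h and 3 lower at 24 h, beside 1294 and 1823 of all 11547. A pseudocount of 5 left 3 lower in KO at 12 h (883 of all 11547 genes), and one of 0.1 called 8 lower in KO at 24 h (3363 of 11547). The length correction left 2 higher in WT at 12 h (1054 of all 11549). In place of shared calls, limma gave 23 and 16 members at 12 and 24 h. The causes were not tested. No paired analysis was possible because each group holds 1 library and the labels give every group the number 1, and for the same reason no library could be left out. Depth limits Ehhadh, Ppargc1b and, with LPS, Pparg, each at about 105 reads or fewer.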
